A study of Mus musculus with 53 samples.

Results

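Peaks of the transcription factors SOX2 and GATA6 and of the histone marks H3K27ac and H3K4me1 are described here at 6 genes that encode trophoblast regulators, Cdx2, Eomes, Elf5, Tfap2c, Gata2 and Gata3, in cells of the epiblast and primitive endoderm (PrE) lineages. The genes were chosen by name, and not by their values, out of 21911 protein-coding genes of GENCODE M21. Earlier results of these data were known when they were chosen. Every peak that overlapped the gene body or the 50 kb on either side of it, called the gene window, was taken from every deposited peak list. The study used SGGC mouse embryonic stem cells (ESCs), a 129/Ola-derived E14JU line in which endogenous SOX2 is fused to GFP and endogenous GATA6 to mCherry, so that all groups carry both reporter alleles, with their resistance cassettes left in. Binding was mapped by CUT&RUN, in which micrococcal nuclease tethered to an antibody cuts out the DNA beside a bound factor or mark for sequencing. Peak lists of 35 libraries from 2 clones, B9 and B12, were analysed. Naive ESCs were grown in 2iLIF or in NACL medium. SOX2+ cells (GFP alone) and double-positive (DP) cells (GFP and mCherry) were sorted from cultures in KOSR medium, and nEnd cells are naive extra-embryonic endoderm, a culture model of PrE.

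For SOX2 there were 4 libraries of naive ESCs, a B9 and a B12 library in either medium, and 3 each of SOX2+ and DP cells. For GATA6 there were 3 libraries of DP cells and 2 of nEnd. For each histone mark, 2iLIF, NACL, SOX2+ cells and nEnd had 2 libraries apiece and DP cells had 1. All libraries from KOSR are of clone B12, from experiments called A, A1 and B, and both H3K4me1 libraries of nEnd are of clone B9. The NACL SOX2 library of B12 takes its medium from its title, since its source name names IgG, and the title of the DP A GATA6 library ends in sub02, a suffix that is not explained. The lists held 1378 to 29623 SOX2 peaks, 1391 to 32510 GATA6 peaks, 13514 to 401853 H3K27ac peaks and 18627 to 130749 H3K4me1 peaks, and read depth is unknown. The absence of a peak is therefore a statement about a list, and it weighs least in the shortest ones, the SOX2 and GATA6 lists of DP experiment B.

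In the blastocyst the trophectoderm is the first lineage to part from the inner cell mass, which afterwards forms epiblast and PrE. CDX2, a caudal-type homeobox factor, and EOMES, a T-box factor, act in the trophectoderm and in trophoblast stem cells. ELF5 is an ETS factor that sustains trophoblast stem cells, TFAP2C is an AP-2 factor of trophoblast that also acts in naive pluripotent and germ cells, and GATA2 and GATA3 are zinc-finger factors of trophectoderm and placenta whose family shares its core DNA motif with GATA6. H3K4me1 marks enhancers whether or not they are active, and H3K27ac marks active enhancers and promoters.

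For each gene, 200 bases are shown of the SOX2 or GATA6 region seen in the most libraries (the best ranked where regions tied). The bases are centred on the maximum of the region's best-ranked peak. At Elf5 this region has the most libraries only through SOX2 in 1 library. The Elf5 regions where GATA6 ranked best in nEnd, described below, are not shown. Sequences are the + strand of GRCm38, the reference of C57BL/6J and not of the cells used. Capitals mark matches, on either strand, to the SOX strings ACAATG and ACAAAG, the OCT string ATGCAAAT and the GATA strings AGATAA and TGATAA.
Cdx2 (SOX2, intron of the gene), chr5:147304309-147304508: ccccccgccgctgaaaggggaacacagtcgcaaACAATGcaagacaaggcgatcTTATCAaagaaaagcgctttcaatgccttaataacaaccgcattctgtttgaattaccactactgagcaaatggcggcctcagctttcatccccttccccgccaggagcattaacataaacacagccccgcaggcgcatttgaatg
Eomes (SOX2 and GATA6 in DP cells, intergenic), chr9:118503989-118504188: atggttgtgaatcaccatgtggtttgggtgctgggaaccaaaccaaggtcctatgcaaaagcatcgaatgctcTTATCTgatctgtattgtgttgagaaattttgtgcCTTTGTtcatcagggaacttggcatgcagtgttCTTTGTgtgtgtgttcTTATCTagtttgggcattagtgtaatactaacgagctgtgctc
Elf5 (GATA6 in nEnd, SOX2 in 1 library, intergenic), chr2:103408243-103408442: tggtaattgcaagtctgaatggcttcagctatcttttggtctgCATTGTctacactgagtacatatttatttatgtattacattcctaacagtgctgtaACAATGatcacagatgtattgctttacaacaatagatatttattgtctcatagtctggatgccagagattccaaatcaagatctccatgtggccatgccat
Tfap2c (SOX2 in every SOX2 library, intergenic), chr2:172577372-172577571: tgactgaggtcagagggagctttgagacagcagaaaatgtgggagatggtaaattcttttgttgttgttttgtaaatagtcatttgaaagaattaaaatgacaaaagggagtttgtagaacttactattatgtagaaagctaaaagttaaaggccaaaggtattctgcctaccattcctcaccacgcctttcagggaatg
Gata2 (GATA6 in DP and nEnd, upstream of the gene), chr6:88190752-88190951: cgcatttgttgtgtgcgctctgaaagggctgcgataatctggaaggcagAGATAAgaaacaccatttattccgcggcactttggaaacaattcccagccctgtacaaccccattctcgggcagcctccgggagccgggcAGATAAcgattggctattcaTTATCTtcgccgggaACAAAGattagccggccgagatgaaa
Gata3 (SOX2, just past the end of the gene), chr2:9855906-9856105: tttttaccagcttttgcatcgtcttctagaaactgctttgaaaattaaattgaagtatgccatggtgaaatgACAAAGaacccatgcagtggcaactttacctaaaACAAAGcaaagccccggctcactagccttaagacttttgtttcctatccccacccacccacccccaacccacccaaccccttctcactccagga
The Eomes sequence held 2 SOX and 2 GATA matches, the Gata2 sequence 3 GATA and 1 SOX matches, the Gata3 and Elf5 sequences 2 SOX matches each, and the Cdx2 sequence 1 match of each kind. None of the strings occurs in the Tfap2c window, and the OCT string is in none of the 6. Among all windows of 200 bases centred in the same way, 65.9% of 23858 regions with SOX2 in at least 2 pluripotent libraries held a SOX string, 20.3% a GATA string and 5.87% the OCT string. Of 19725 regions with GATA6 in both nEnd libraries, 48.4% held a SOX string, 75.7% a GATA string and 1.6% the OCT string.

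Across the 6 gene windows, the peaks of all 15 SOX2 and GATA6 libraries merged into 47 regions, of which 13 rested on 1 library. SOX2 was in 20 of them, GATA6 in 30, and both in 3. SOX2 lay in at least 2 of the 7 pluripotent libraries (2iLIF, NACL and SOX2+) in 12 regions, 6 of them at Tfap2c, 3 at Cdx2, 2 at Gata3 and 1 at Eomes. By window, 4 of 6 genes had SOX2 peaks in at least 2 of these libraries, where 69.6% of all protein-coding genes did, and 1, Tfap2c, had them in 7 of 7, where 28.3% did. GATA6 lay in both nEnd libraries in 22 regions, 8 at Elf5, 6 at Gata3 and 4 each at Eomes and Gata2. By window this was 4 of 6 genes against 62.7% of all genes, while Cdx2 and Tfap2c had no GATA6 peak in any of the 5 libraries, as did 23.3% of all genes. In DP cells SOX2 lay in at least 2 of 3 libraries at 3 regions (2 at Tfap2c, 1 at Eomes) and GATA6 at 4 regions (2 at Gata2, 1 each at Eomes and Gata3). By window these were 2 and 3 of 6 genes, against 21.5% and 21.3% of all genes. All 3 DP libraries had a SOX2 peak at Tfap2c alone, against 8.30% of all genes, and GATA6 in both DP and nEnd was seen at Eomes, Gata2 and Gata3, against 19.4%. No region was tested between populations, since the lists differ in length.

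**Figure D1:**
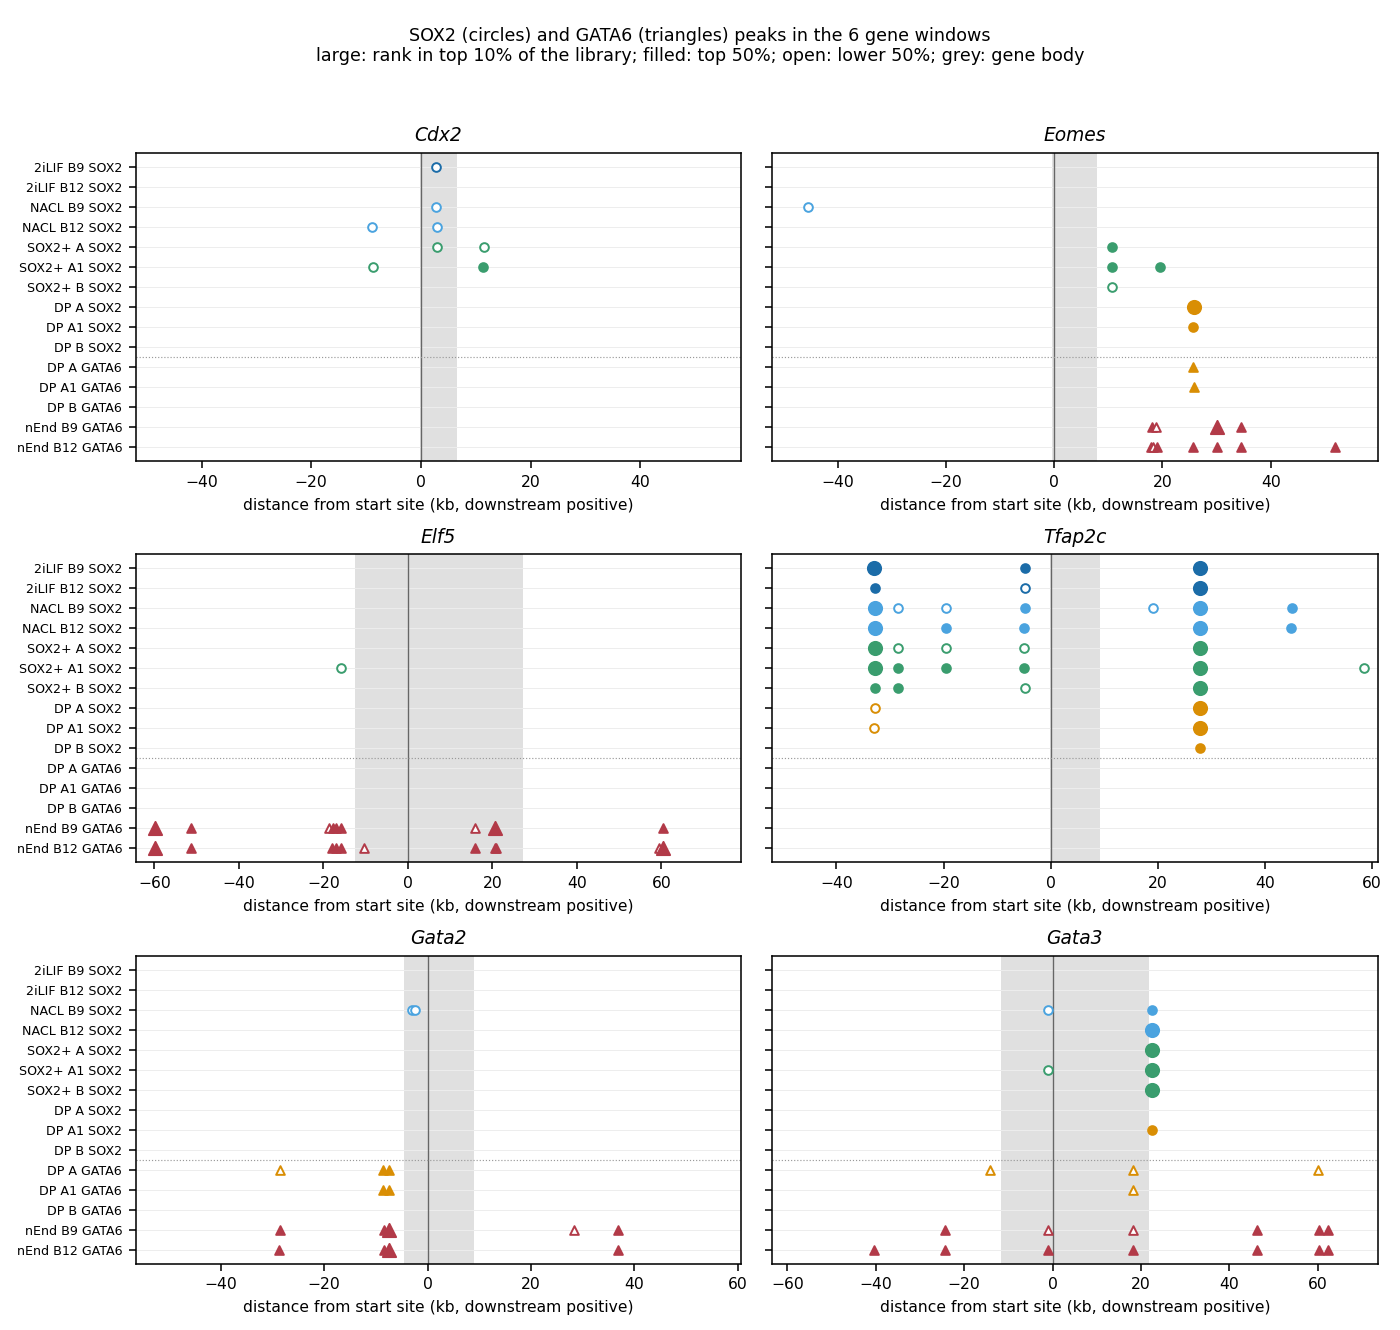
SOX2 peaks (circles) and GATA6 peaks (triangles) of 15 libraries, 1 row per library, against the distance in kb from the start site of each gene; grey marks the gene body, large symbols a rank in the top 10% of the library and open symbols a rank in the lower 50%. Tfap2c holds SOX2 peaks and no GATA6 peak, Elf5 holds GATA6 peaks in nEnd and none in DP cells, and the Eomes peaks of DP cells line up at 25.7 kb.

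At Cdx2, SOX2 was listed in 5 of 7 pluripotent libraries, mostly in the weaker 50% of a list, and no GATA6 peak was listed. Cdx2 lies on the - strand at chr5:147300805-147307270. The region with the most libraries lay in the gene's intron, 2.8 kb downstream of the start site (chr5:147304091-147304750). Its max signal was 16 in 2iLIF B9, 13 in NACL B9, 9 in NACL B12 and 6 in SOX2+ A, which ranked in the lists at 71.3%, 69.9%, 54.2% and 90.9% counted from the strongest peak. It was listed in neither 2iLIF B12 nor SOX2+ A1 or B, nor in any DP library. The other SOX2 regions lay 8.9 kb upstream, in an intron of Urad, the gene next to Cdx2, and 11.4 kb downstream (chr5:147295724-147296036), with 2 libraries each. The latter held the best-ranked Cdx2 peak, in SOX2+ A1, with a max signal of 12 and a rank of 6855 of 20609 (33.3%), and in SOX2+ A it ranked at 52.5%. NACL B9 and B12 carried H3K27ac within 1 kb of the Cdx2 start site, with max signals of 4 and 8 that ranked at 93.3% and 30.2%, and no 2iLIF, SOX2+, DP or nEnd library listed it there. The same pattern, picked after the values were seen, held at the principal start of 3 of the 6 genes (Cdx2, Eomes and Gata3) and at 1.69% of all genes. At the most upstream annotated end of Gata3 it did not hold, since 1 of 2 2iLIF libraries listed H3K27ac there beside both NACL libraries. Absence weighs less in the SOX2+, DP and nEnd H3K27ac lists, which hold 13514 to 76260 peaks against 224091 and 210904 in NACL. The 2iLIF lists, with 232779 and 401853 peaks, are no shorter than those of NACL.

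At Eomes, the region that held both factors in DP cells was not listed for SOX2 in pluripotent cells. Eomes lies on the + strand at chr9:118478212-118486132. The region lay 25.7 kb downstream of the start site (chr9:118503841-118504286), between Eomes and Golga4, the gene of a Golgi protein, and it held SOX2 and GATA6 in DP cells of experiments A and A1. The SOX2 peaks had a max signal of 19 (rank 451 of 4859) and 20 (rank 1249 of 5320), and the GATA6 peaks 20 (rank 1320 of 8316) and 19 (rank 1049 of 3821). Neither factor was listed there in DP experiment B, and SOX2 was listed there in none of the 7 pluripotent libraries. GATA6 was also listed there in nEnd B12, with a max signal of 37 (rank 8321 of 32510), but not in nEnd B9. Windows with such a region, SOX2 and GATA6 each in at least 2 of 3 DP libraries, made up 6.71% of all genes, and Eomes was the 1 member among them. H3K27ac overlapped it in the only DP library of that mark, in both nEnd libraries, and in no 2iLIF, NACL or SOX2+ library. The DP peak was 364 bp wide and that of nEnd B9 30103 bp. H3K4me1 followed the same distribution over libraries.

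A second Eomes region, 10.7 kb downstream (chr9:118488845-118489224) in an exon of the antisense gene Gm33460, held SOX2 in all 3 SOX2+ libraries and in no 2iLIF, NACL or DP library. Its max signal was 24 in SOX2+ A, 9 in A1 and 7 in B, with ranks at 18.2%, 49.0% and 79.5% of the lists. In nEnd, GATA6 occupied 4 regions in both libraries, 18.1, 18.9, 30.1 and 34.5 kb downstream, the latter pair in introns of Golga4. The strongest was that at 30.1 kb, with a max signal of 87 in B9 (rank 2259 of 24223) and 55 in B12 (rank 4678 of 32510).

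At Elf5, GATA6 was listed in nEnd, with 9 peaks in B9 and 11 in B12, and in none of the 3 DP libraries. The nEnd lists hold 24223 and 32510 peaks and the DP lists 1391 to 8316, and with each GATA6 list reduced to its strongest 1391 peaks none of the 22 regions with GATA6 in both nEnd libraries was left at any of the 6 genes, while 1 of the 4 DP regions was. The Elf5 window spans 139302 bp, against a median of 117433 bp. Elf5 lies on the + strand at chr2:103411688-103450989, and distances are from the start of its principal transcript, which lies inside the gene body. The 3 regions 15.7, 16.9 and 17.8 kb upstream of it precede the most upstream annotated end of the gene, and in nEnd they ranked between 10.6% and 33.5% of the lists. In the gene, the region 20.7 kb downstream had a max signal of 91 in B9 and 62 in B12 (ranks 2021 and 3828), the best rank of the window in B9. The region best ranked in B12 lay 59.9 kb upstream, in an intron of the noncoding gene A930006I01Rik, with 87 in B9 and 106 in B12 (ranks 2259 and 1166). A further region lay 60.4 kb downstream, within 1 kb of the start of Cat, the gene of the peroxide-degrading enzyme catalase. SOX2 was listed in 1 of 10 libraries, SOX2+ A1, at the region 15.7 kb upstream, with a max signal of 7 (rank 13752 of 20609).

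Tfap2c was bound by SOX2 in every SOX2 library and by GATA6 in none. The gene lies on the + strand at chr2:172549593-172558622. The region 27.8 kb downstream of the start site (chr2:172577024-172577789), intergenic, was listed in 10 of 10 libraries. Its max signal was 144 and 90 in 2iLIF B9 and B12 (ranks 33 of 13177 and 47 of 8203) and 129 and 80 in NACL B9 and B12 (ranks 186 of 29623 and 77 of 17111). In SOX2+ A, A1 and B it was 101, 67 and 56 (ranks 89 of 16819, 206 of 20609 and 210 of 10513). In DP A, A1 and B it was 25, 42 and 20 (ranks 228 of 4859, 220 of 5320 and 185 of 1378). All 7 pluripotent libraries thus placed it in their strongest 2%, and the DP libraries at 4.69%, 4.14% and 13.4%, lists that are shorter. SOX2 peaks in 10 of 10 libraries, anywhere in the window, were found for 7.88% of all genes, and in 1 merged region for 7.19%.

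Of the other SOX2 regions at Tfap2c, the 2 with the most libraries were upstream. The region 32.8 kb upstream (chr2:172516398-172517097) was listed in 7 of 7 pluripotent libraries, at ranks of 2.04% to 18.2%, and in DP A and A1 at 86.8% and 83.6%, with max signals of 5 and 9. The region 4.9 kb upstream was listed in 7 of 7 pluripotent libraries and in no DP library. H3K27ac covered the regions 27.8 kb downstream and 32.8 kb upstream in every 2iLIF, NACL, SOX2+ and DP library and in no nEnd library.

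**Figure D2:**
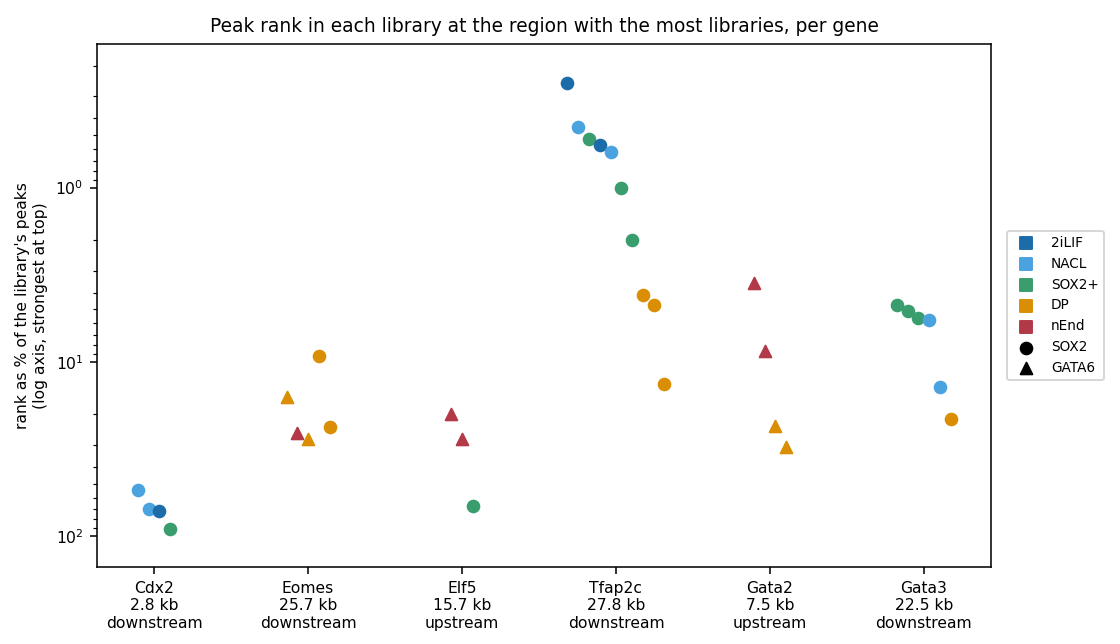
Rank of the SOX2 peak (circles) or GATA6 peak (triangles) as a percentage of all peaks of its library (log axis, strongest at the top), for the region of each gene with the most libraries, coloured by population. Tfap2c lies highest, with 0.25% in 2iLIF B9, and the best-ranked of the 4 Cdx2 peaks stands at 54.2%.

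At Gata2, 2 GATA6 regions upstream of the gene were shared by DP and nEnd cells. Gata2 lies on the + strand at chr6:88193891-88207032. The regions lay 8.6 and 7.5 kb upstream of the principal start site (chr6:88189556-88189961 and chr6:88190645-88191073), in an intron and an exon of the long noncoding gene Gm38708 and before the annotated beginning of Gata2. At 8.6 kb the max signal was 22 in DP A, 22 in DP A1, 59 in nEnd B9 and 44 in nEnd B12, and at 7.5 kb it was 16, 18, 124 and 73. The region at 7.5 kb ranked 850 of 24223 in nEnd B9 and 2808 of 32510 in B12. No DP B peak was listed at either, and windows with a region of this kind made up 15.5% of all genes. H3K27ac covered neither region in any library, and H3K4me1 covered them in DP A and the nearer one in 1 of 2 nEnd libraries. Another region with GATA6 in both nEnd libraries and DP A lay 28.6 kb upstream. SOX2 was listed at Gata2 in 1 of 10 libraries, NACL B9, with 2 peaks of max signal 7 and 12 that ranked in the weaker 50%.

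At Gata3, SOX2 and GATA6 regions lay at different places around the end of the gene, which lies on the - strand at chr2:9857078-9890034. The SOX2 region 22.5 kb downstream of the start site (chr2:9855820-9856315), intergenic and just past the gene, was listed in NACL B9 and B12 with max signals of 45 and 35, in SOX2+ A, A1 and B with 45, 36 and 40, and in DP A1 with 21. The SOX2+ ranks were 942 of 16819, 1049 of 20609 and 497 of 10513. It was listed in neither 2iLIF library. GATA6 lay 18.2 kb downstream, in an intron (chr2:9860160-9860593), in DP A and A1 with a max signal of 8 each and in nEnd B9 and B12 with 20 and 22. H3K27ac covered that intronic region in every 2iLIF, NACL, SOX2+ and DP library and in neither nEnd library. The principal start site of Gata3 lies inside the gene body, 11.4 kb from its most upstream annotated end, and in the intron 1.1 kb upstream of that start 1 region (chr2:9879507-9879824) held GATA6 in both nEnd libraries and SOX2 in NACL B9 and SOX2+ A1. Without DP A or without DP A1, 0 of the 4 GATA6 regions of DP cells, and 1 of the 3 SOX2 regions, would have been listed in 2 libraries.

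Histone marks were compared by ranking. In each library every gene window was given the max signal of its strongest peak, and the windows of all 21911 genes were ranked from 0 to 100 (percentile), windows without a peak sharing 1 low value. That shared value was 1.79 to 2.60 in the H3K27ac libraries of 2iLIF and NACL, 14.9 and 15.2 in those of nEnd and 24.5 and 24.6 in those of SOX2+ cells. A percentile near such a value is that of an empty window. The H3K27ac lists also differ in their lowest max signal, 2 or 3 in the naive libraries against 8 in nEnd, and in their median peak width, 1008 to 1452 bp against 4386 and 5453 bp. Apart from clone and experiment, nothing says that libraries come from separate cultures, so p-values measure the spread between these libraries, which may be technical. Naive here means the 4 libraries of 2iLIF and NACL, against 2 of nEnd.

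Tfap2c fell in both marks in nEnd, where no peak was listed in its window. H3K27ac stood at 84.6 and 70.1 in 2iLIF B9 and B12, 52.6 and 39.95 in NACL B9 and B12, 80.3 and 72.2 in SOX2+ A and B. No peak was listed in either nEnd library, and fewer cells with a mark and less of it per cell cannot be told apart in such bulk samples. H3K4me1 stood at 97.2 and 89.9 in 2iLIF, 75.7 and 93.8 in NACL, 61.0 and 75.8 in SOX2+ A and B, again with no peak in nEnd. Both nEnd values lay below those of all other libraries for either mark, while NACL values overlapped those of 2iLIF and of SOX2+ in H3K4me1, and 2iLIF values those of SOX2+ in H3K27ac. The difference of nEnd from naive was -46.7 points (SE 7.48) for H3K27ac and -72.8 (SE 9.58) for H3K4me1, with limma adjusted p-values (Benjamini-Hochberg over all genes tested) of 0.00376 and 7.79e-05. Of the 6 genes, Tfap2c alone had both nEnd libraries below all 4 naive ones, as did 26.4% of all genes for H3K27ac and 16.7% for H3K4me1. Both marks in all 6 libraries each of 2iLIF, NACL and SOX2+ and in no nEnd library were found at 0.561% of all genes, a property that was picked after the values were seen. For H3K27ac alone the share was 2.15%, for H3K4me1 alone 2.85%, and together with SOX2 in 10 of 10 libraries 0.123%.

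Cdx2 and Eomes rose in H3K27ac. Among 21123 genes tested, 33.3% changed (16% higher, 17.4% lower), and of the 6 genes 2 were higher and 1 lower. The median difference of the 6 was 3.76 points, and that of all genes -0.84. Cdx2 stood at 14.4 and 10.2 in 2iLIF B9 and B12 and at 5.70 and 12.2 in NACL. In nEnd B9 and B12 it stood at 53.0 and 53.5, values above all 4 naive libraries, as at Eomes and at 25.9% of all genes. The difference was 42.6 points (SE 3.63, limma adjusted p = 0.000436). The nEnd peaks, 1 in each library with max signals of 55 and 48, formed a block of 4558 bp over the end of the gene (chr5:147297658-147302215), where no pluripotent library had an H3K27ac peak. Inside this block, H3K4me1 (chr5:147298708-147302041) was listed in 2 of 2 SOX2+ libraries and the DP library, in no naive library and in neither nEnd library. With windows of 100 kb the difference was 22.3 (adjusted p = 0.0771). For H3K4me1 the Cdx2 window had 1 peak in 1 of 2 nEnd libraries and peaks in 2 of 4 naive ones, a difference of -0.87 (SE 8.56, adjusted p = 0.949).

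Eomes stood at 40.7 and 56.7 in 2iLIF B9 and B12, and 23.4 and 34.2 in NACL. In nEnd B9 and B12 it stood at 92.6 and 79.0, again with no overlap with the naive values. The difference was 47.1 points (SE 7.75, limma adjusted p = 0.00418). In nEnd B9 and B12 a broad H3K27ac block reached from before the region at 25.7 kb into Golga4, and in B9 this was the strongest peak (30103 bp, max signal 121). In B12 the strongest was a peak of 4210 bp centred 18.6 kb downstream, with a max signal of 73. The difference was 31.8 (adjusted p = 0.0298) when peaks at start sites of other genes were left out, an alternative chosen after seeing the data. For H3K4me1 the difference was 10.4 (SE 9.03, adjusted p = 0.416), with 83.2 and 81.0 in nEnd inside the naive range of 52.0 to 86.6.

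**Figure D3:**
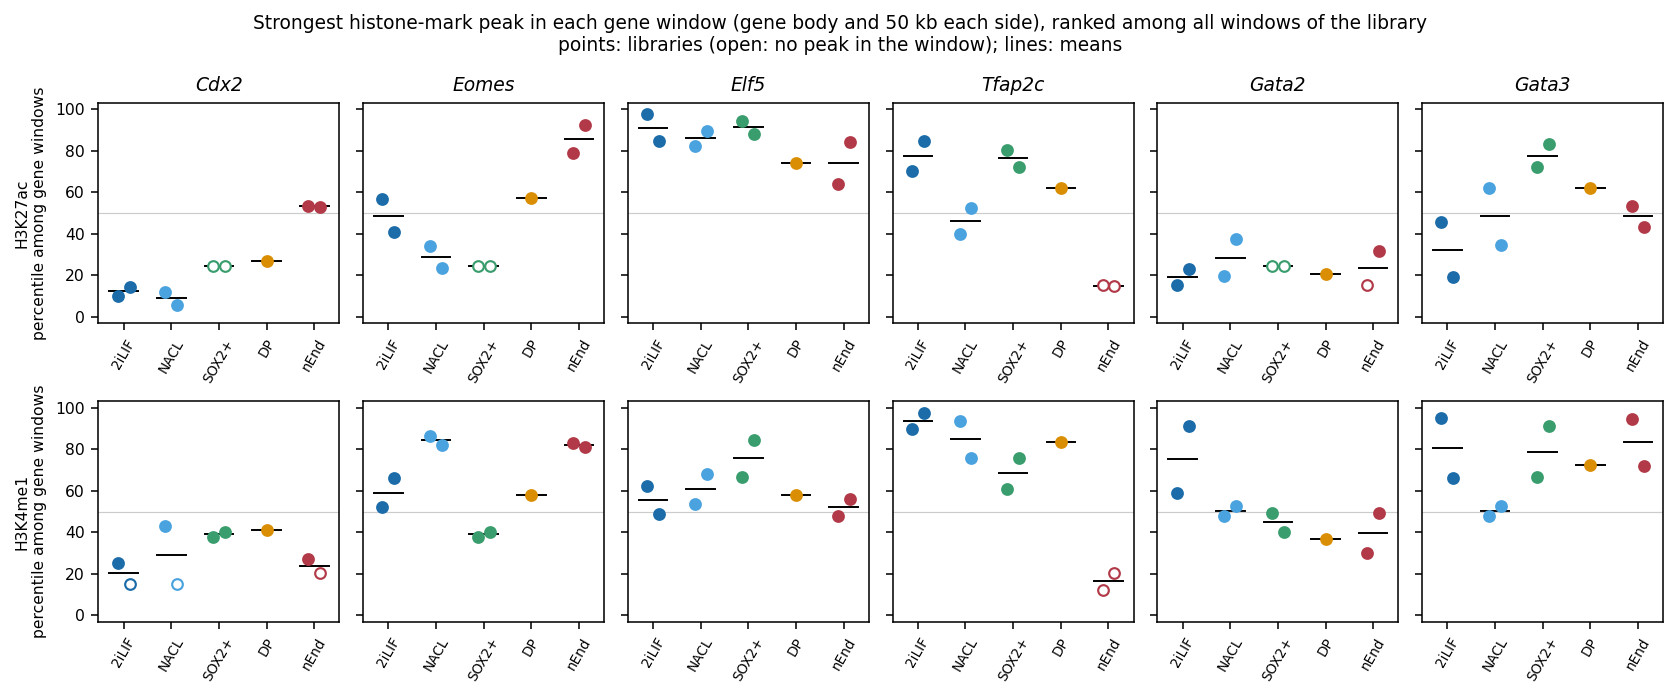
Percentile of the strongest H3K27ac (upper row) and H3K4me1 (lower row) peak of each gene window among all gene windows of its library; points are libraries, open points have no peak in the window, and lines are means of a population. Tfap2c falls to the no-peak level in nEnd for both marks, while Cdx2 and Eomes reach their highest H3K27ac values there, 53.0 to 92.6.

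Elf5 did not pass the test in the window of 50 kb, and its direction depends on the window. H3K27ac stood at 84.6 and 97.7 in 2iLIF, and 89.5 and 82.4 in NACL, against 84.1 and 63.9 in nEnd, a difference of -14.6 points (SE 6.59, limma adjusted p = 0.127). In 4 naive libraries the strongest peak lay 56.4 to 58.3 kb downstream, close to Cat, whereas in nEnd it lay 18.8 and 18.4 kb downstream, inside Elf5, and covered the GATA6 region at 20.7 kb. In windows of 10 kb around the gene the difference was 58.7 (adjusted p = 0.00156), without peaks at the start sites of other genes it was 29.5 (adjusted p = 0.271), and without the nEnd B9 library it was -24.6 (adjusted p = 0.0462). H3K27ac covered the GATA6 regions at 15.7, 16.9 and 17.8 kb upstream in 2 of 2 nEnd libraries, with H3K4me1 in both as well, and in 1 of 4 naive libraries at 1 of them. H3K4me1 over the window differed by -6.25 (SE 10.07, adjusted p = 0.686), and by 41.7 (adjusted p = 0.00841) in windows of 100 kb.

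Gata2 and Gata3 did not pass the test for either mark. Gata2 stood at 15.6 to 37.4 in naive H3K27ac libraries and at 31.5 and the no-peak level in nEnd, a difference of -0.58 points (SE 6.4, limma adjusted p = 0.952), and at 47.98 to 91.35 against 30.2 and 49.15 for H3K4me1, a difference of -23.1 (SE 11.2, adjusted p = 0.132). In windows of 100 kb the H3K27ac difference was 19.8 (adjusted p = 0.00615), and in windows of 10 kb the H3K4me1 difference was -33.9 (adjusted p = 0.027). Gata3 stood at 18.99 to 61.9 in naive H3K27ac libraries and 43.3 and 53.5 in nEnd, a difference of 8.09 (SE 10.8, adjusted p = 0.594), with 17.8 (SE 10.3, adjusted p = 0.206) for H3K4me1. Within 10 kb of Gata3 both differences turned, to -34.4 (adjusted p = 0.0517) and -55.1 (adjusted p = 0.000523). The strongest H3K27ac peak of Gata3 in nEnd lay 61.1 kb downstream in B9 and 40.7 kb upstream in B12, in Taf3, a gene of the general transcription machinery, while in NACL and SOX2+ libraries it lay 16.6 to 24.8 kb downstream, from the gene's interior to just past its end. In 2iLIF it lay 40.4 kb upstream in B9 and 17.1 kb downstream in B12, and in DP A 60.3 kb downstream, so 2iLIF B9 and DP A had it at about the places of the nEnd libraries. For H3K4me1, 29.3% of 19186 genes passed the test (14.2% higher, 15% lower), and of the 6 genes Tfap2c alone, as lower. No member had both nEnd libraries above all naive ones for H3K4me1, against 19.5% of all genes. Peaks in both nEnd libraries were found in 4 of 6 windows for either mark (all genes 67.0% for H3K27ac and 58.1% for H3K4me1), and peaks in all 4 naive libraries in 6 windows for H3K27ac (93.2%) and 5 for H3K4me1 (57.2%).

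**Figure D4:**
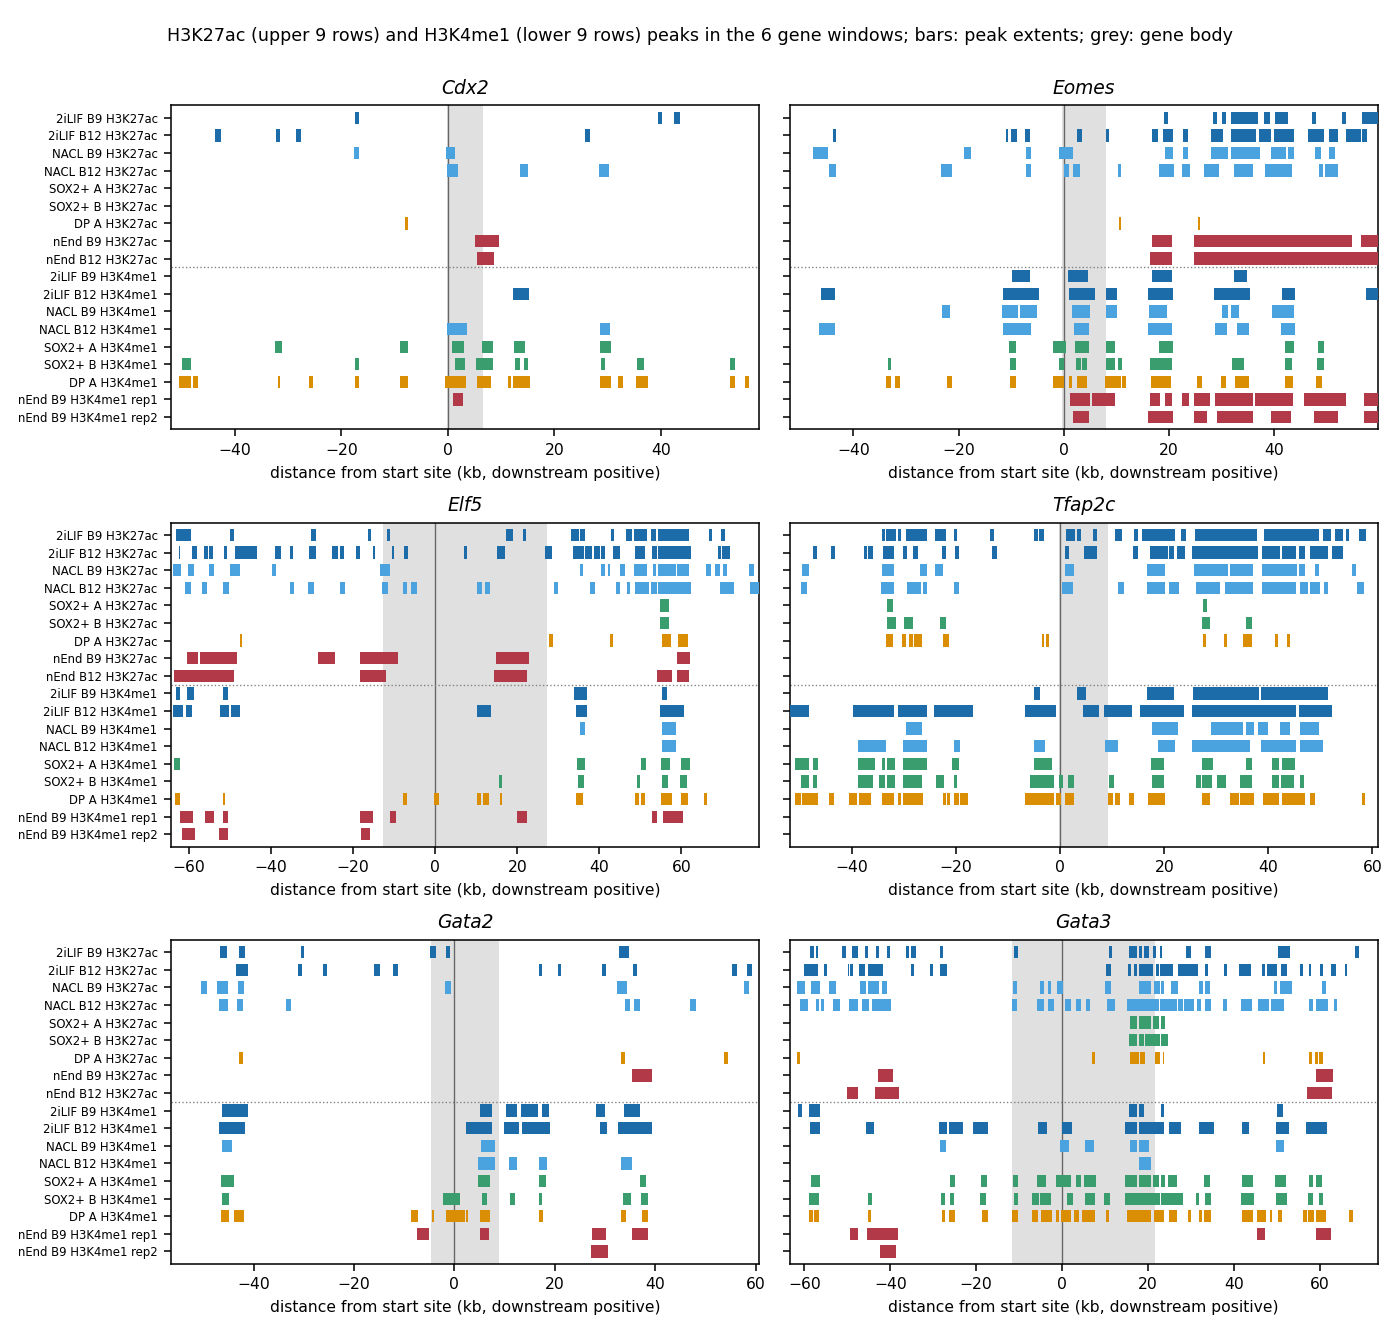
Extent of each H3K27ac peak (upper 9 rows) and H3K4me1 peak (lower 9 rows) in the windows of the 6 genes, 1 row per library, against the distance in kb from the start site; grey marks the gene body. Tfap2c is free of peaks in all 4 nEnd libraries, and the nEnd H3K27ac peak of Cdx2 lies over the end of the gene, where no naive library has an H3K27ac peak.

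Between the naive media no member passed the test. Tests of NACL against 2iLIF called 2 of 21123 genes for H3K27ac (0.00947%) and 171 of 19186 for H3K4me1 (0.891%, with 0.240% higher and 0.652% lower), none of them among the 6 (limma). The H3K4me1 count is not stable, with 15 to 60 genes when any 1 of the 4 naive libraries was left out, 0 at equal peak numbers or with the compared groups alone, and 437 with the clone as a block. At an unadjusted p under 0.05 stood 1 of the 6, Tfap2c, for H3K27ac and 2, Eomes and Gata3, for H3K4me1.

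The sorted DP cells had 1 library per mark, and their values have no replicate check. For H3K27ac they stood at 26.7 for Cdx2, 57.1 for Eomes, 74.3 for Elf5, 62.2 for Tfap2c, 20.8 for Gata2 and 62.2 for Gata3. At Eomes the H3K27ac library held 2 peaks, the stronger at the region of SOX2 and GATA6 (max signal 10, rank 7445 of 76260). For H3K4me1 the DP values were 41.1, 57.8, 57.8, 83.4, 36.8 and 72.4 in the same order. In SOX2+ cells both libraries had an H3K27ac peak in the window of Elf5, Tfap2c and Gata3 and neither had one at Cdx2, Eomes or Gata2, and 44.9% of all genes had one in both. H3K4me1 peaks were in both SOX2+ libraries at all 6 genes, against 82.9% of all genes. For 2 further histone libraries, B_DP, the title names DP and the source name SOX2+ cells. They were used in no comparison and are given apart in the closing section.

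Within 1 kb of the principal start sites, no nEnd library had H3K27ac at any of the 6 genes, as at 57.7% of all genes, and both NACL libraries had it at Cdx2, Eomes, Tfap2c and Gata3, as at 52.2%. Both held together at these 4 genes and at 14.4% of all genes, a combination that was picked after the values were seen. The NACL lists hold 224091 and 210904 peaks against 21394 and 20072 in nEnd, and the NACL peaks at these start sites ranked from 20.4% to 93.3% of their lists. Within 1 kb of the most upstream annotated end of Elf5, 12.4 kb from its principal start, H3K27ac was listed in 2 of 2 nEnd, 2 of 2 NACL and 1 of 2 2iLIF libraries. At the principal starts it was listed in 1 of 2 2iLIF libraries at Tfap2c and Gata2, and 67.1% of all genes had it in at least 1. GATA6 lay within 1 kb of the principal Gata3 start in both nEnd libraries, as at 7.98% of all genes, and at no other member in any GATA6 library. SOX2 lay there at Gata3 in 1 NACL and 1 SOX2+ library and at no other member, and 11.2% of all genes had it in at least 1 of 10 libraries.

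Of 36 other genes of trophoblast, 35 were tested for H3K27ac, and 12 were higher and 2 lower in nEnd, where 16% of all genes were higher and 17.4% lower. Their median difference was 14.7 points against -0.84 for all genes. A window empty in every library reads higher in nEnd, at 14.9 and 15.2 against 1.79 to 2.60 in 2iLIF and NACL. How far the count of 12 and the median rest on empty windows was not tested. For H3K4me1, 5 were higher and 6 lower of 34, shares near the 14.2% and 15% of all genes, with a median of 3.21 against -0.27. The largest rises were those of Krt8, a keratin of simple epithelia, with 80.2 points (limma adjusted p = 0.000309), Cited1, a transcriptional coactivator, with 65.8 (adjusted p = 0.00271), Tspan8, a tetraspanin, with 58.5 (adjusted p = 0.00109), Dlx3, a distal-less homeobox factor, with 51.0 (adjusted p = 0.00154) and Ddah1, a dimethylarginine hydrolase, with 43.1 (adjusted p = 0.0244). The genes that fell were Ascl2, a basic helix-loop-helix factor, with -62.6 points, and Tfap2a, an AP-2 factor like TFAP2C, with -33.6, and limma adjusted p-values of 0.00287 and 0.00962. Both also fell in H3K4me1, Ascl2 with -48.15 points (limma adjusted p = 0.00231) and Tfap2a with -50.4 (adjusted p = 0.00115). Tpbpa, a spongiotrophoblast gene named because its call rests on empty windows, counts among the rises at 9.67 although no nEnd library had a peak there.

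The labels of nEnd against 2iLIF and NACL were checked by other genes, and those of SOX2+ and DP cells were not checked in this way. Of 10 pluripotency markers, 0 were higher and 7 lower in H3K27ac in nEnd, for example Esrrb (-72.4 points) and Nanog (-18.5). For H3K4me1, 0 were higher and 2 lower, near the 15% of all genes called lower. Of 15 PrE markers, 10 were higher and 0 lower, for example Foxa2 (83.96 points) and Sox17 (70.5), and Gata6 itself differed by 19.35 (limma adjusted p = 0.0816). For H3K4me1, 9 of the 15 were higher and 0 lower. The genes whose marks over 18 histone libraries were nearest to a member's, by the mean absolute difference of percentiles, were as follows, leaving out genes whose windows overlap the member's. For Cdx2 they were Syn2 (3.80 points), Slc22a6 and Gm4871 (5.16 each), and for Eomes Ramp2 and Vps25 (7.69 each) and Cby1 (8.57). For Elf5 they were Dnttip2 (6.65), Ydjc (7.84) and Cnot8 (8.16), and for Tfap2c Gm10198 (6.65), Zfp536 (7.83) and Pknox2 (9.13). For Gata2 they were Prps1 (7.62), Tbc1d19 (7.96) and Tgfbi (8.03), and for Gata3 Xrcc1 (10.2), Fggy (10.6) and Asap1 (10.7). These are descriptions over libraries that share clones and media, and Gata3 had no gene within 10 points.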

How the data were processed

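CUT&RUN peak lists of 35 of 53 samples were analysed, and the 18 IgG samples, which the authors used as controls for peak calling, were not used here. According to the submitters' processing notes, reads were processed with cutadapt 1.18, Bowtie2 2.3.4.1, SAMtools 1.9, Picard 2.9.1, bedtools 2.27.1 and deepTools 3.2.0, and peaks were called on GRCm38 (mm10) with SEACR. Each deposited list gives a peak's position, total signal and max signal, both coverage in whole numbers on the library's own scale, and the position of the maximum. The authors called peaks per library. File labels give relaxed calling for histone lists and stringent calling for factor lists, whereas the study's methods state the reverse. A short list has fewer peaks to show, and many peaks share a max signal, so ranks have ties.

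The 6 genes and all lists were chosen with earlier results of these data known. Windows were gene bodies of GENCODE M21 plus 50 kb, and overlap meant 1 bp. A mark that overlapped a region is said to cover it. Distances run from the start of the principal (APPRIS) transcript to the middle of a region. Percentiles of the strongest peak were compared with limma 3.58.1 (R 4.3.3) over 8 libraries per mark (2iLIF, NACL, SOX2+ and nEnd, 2 each), for genes with a peak in at least 2 libraries and a Benjamini-Hochberg threshold of 0.05, 2-sided. The fit was also run on simulated data with known shifts, and the outcome is not given here. The simulated data did not carry the unequal no-peak values of naive and nEnd libraries. Region counts have no test. Clone labels pair 2iLIF, NACL and nEnd libraries for H3K27ac and 2iLIF with NACL for H3K4me1, since the same clone is the same line: deviations of the same clone correlated at 0.172, 0.098 and 0.04 (2iLIF with NACL, 2iLIF with nEnd, NACL with nEnd) and 0.146, over 21911 genes. Genes named were the members, the trophoblast genes with the largest called changes (up to 5 in each direction), genes at whose bodies or start sites a region lay, and the nearest genes by percentile. Sequence was read from GRCm38 with pysam 0.24.0. Alternatives were total signal, windows of 10 and 100 kb, no filter, normal scores, equal peak numbers, other libraries in the fit, the clone block, and each library left out; peaks at other start sites left out was added after seeing the data.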

Additional observations from a re-analysis of the deposited data

Results flagged for a closer look

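Signal was found in the 2 B_DP libraries, which enter no comparison because title and source name disagree on the sorted cells. The number of peaks in a gene window was above 3, the limit that a count of 0 allows, in the cases given next. Such a number is common: 71.8% of all gene windows held more than 3 H3K4me1 peaks there and 18.2% more than 3 H3K27ac peaks. H3K4me1 peaks in the B_DP library numbered 12 at Cdx2, 13 at Eomes, 7 at Elf5, 22 at Tfap2c, 5 at Gata2 and 19 at Gata3, out of 94492 peaks. The percentiles were 62.6, 56.2, 79.3, 92.8, 24.7 and 90.3 in that order. H3K27ac peaks in the B_DP library numbered 4 at Tfap2c and 5 at Gata3, out of 19185, with percentiles of 73.6 and 78.8. Elf5 had 2 H3K27ac peaks, the stronger of them ranked 366, and Cdx2, Eomes and Gata2 had 0. In particular the region at Eomes that held SOX2 and GATA6 in DP cells was covered by neither mark there. No 1 group held 4 or more libraries of an antibody, so no library could be examined as an outlier.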

How the results depend on the processing

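Of 277 alternative values for 20 results, 209 kept their direction and their side of the threshold (for counts, within 1.5 times), and 68 did not. The 4 called values of members (Cdx2, Eomes and Tfap2c for H3K27ac, Tfap2c for H3K4me1) were kept in 59 of 60, the exception being Cdx2 in windows of 100 kb. Values of uncalled members turned sign, and the cause was not tested. For H3K27ac, Gata2 gave 1.57 with total signal, 10.02 and 19.84 in windows of 10 and 100 kb, 1.25 without peaks at other start sites, and -8.72 to 7.57 with each library left out. Elf5 gave 58.73, 4.71 and 29.5 in windows of 10 kb, of 100 kb and without other start sites, and Gata3 -34.41 and -22.22 in windows of 10 and 100 kb. For H3K4me1, Eomes gave -12.91, Elf5 4.82 and Gata3 -55.1 in windows of 10 kb, Elf5 41.68 in windows of 100 kb, and Cdx2 0.01 with normal scores and -7.82 to 6.08 with each library left out.

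With the clone as a replicate block, which pairs libraries, 7021 genes were called for H3K27ac and 4797 for H3K4me1 in nEnd, and the uncalled value of Cdx2 for H3K4me1 turned to 8.63; the block moved no call of a member. For NACL against 2iLIF the block gave 0 genes for H3K27ac and 437 for H3K4me1. With each library left out, nEnd calls ranged from 3623 to 6151 for H3K27ac and from 2899 to 5482 for H3K4me1 (lowest without nEnd B9 for H3K27ac, and 3681 and 2899 without either nEnd library for H3K4me1), and those of NACL from 0 to 5 and from 15 to 60. The other NACL counts for H3K27ac were 35 with total signal, 20 with normal scores and 0 in windows of 10 kb, with equal peak numbers, with the compared groups alone and without other start sites. For H3K4me1 they were 42 in windows of 10 kb, 437 without a filter, 291 with normal scores, 39 without other start sites, and 0 with equal peak numbers or the compared groups alone.

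The 12 SOX2 regions of pluripotent cells became 7 and 19 in windows of 10 and 100 kb, 19 in any library, 3 in all, 6 in the stronger 50% of peaks, 3 at equal peak numbers (1378 per SOX2 list, 1391 per GATA6 list) and 9 to 12 with each library left out. The 3 SOX2 regions of DP cells became 0 and 5 in those windows, 1 in all libraries, 1 at equal peak numbers and 1 to 3. The 4 GATA6 regions of DP cells became 7 in any library, 0 in all, 1 at equal peak numbers and 0 to 4. The 22 GATA6 regions of nEnd became 10 in windows of 10 kb, 0 at equal peak numbers, and 24 and 27 with either library left out. Peak numbers limit what a list can show, and depth is unknown.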
